A study of Mus musculus with 8 samples.

Results

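Interferon-stimulated genes are genes whose transcription rises when a cell is exposed to interferon. The 40 mouse genes described here were chosen by their symbols. The rule used no measured value, but the list was drawn up with earlier results of these data known. All 40 had a row among the 24552 genes of the count table, and 32 had counts high enough to be tested among 11211 tested genes. The other 8 (Zbp1, Ifit2, Oas1a, Oas2, Oas3, Oasl1, Mx1 and Mx2) never exceeded 35 counts in a library and are given by their levels.

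The libraries were made from exorbital lacrimal glands (LGs), the glands that secrete the aqueous layer of tears, of female C57BL/6J mice. From 6–7 months of age until 10–11 months, the mice were fed either ad libitum (AL, 4 libraries) or a 40% calorie restriction (CR, 4 libraries), introduced in steps. The study used 2 cohorts that differed in site and chow, and which cohort gave each library is not given in the sources used here. Libraries were sequenced from the 3′ end of polyadenylated RNA. Levels are given as CPM, the counts divided by the normalized library size and scaled up, and fold changes as log2 of CR over AL.

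Type I interferons signal through a receptor with the kinases JAK1 and TYK2, which activate transcription factors that include STAT2. With IRF9 it forms part of a complex that binds the interferon-stimulated response element (ISRE), while interferon-γ acts through JAK1 and JAK2 at the gamma-activated site (GAS). The induced genes sense viral nucleic acid, block viral RNA or entry, deplete nucleotides, attack the vacuoles of intracellular pathogens, or feed back on the pathway. In the LG, interferon-γ from infiltrating lymphocytes has been studied as part of age-related and autoimmune inflammation.

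The core letters of the 2 elements were looked for in RefSeq promoter windows of GRCm38.p6, from 250 bases before to 50 after a gene's start. Of the 40 members, 30 had an entry. The ISRE core, GAAANNGAAA or TTTCNNTTTC on the other strand, was in 16 of the 30 (53.3%), against 3.99% of 27025 genes with an entry. The GAS core, TTCNNNGAA, which reads the same on both strands, was in 9 of the 30 (30.0%), against 9.55%. Stretches are shown for members that the results below turn on or that represent a role, read 5′ to 3′ on the strand of the gene with the core in capitals. The first 8 show an ISRE core.

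Stat2 (chr10:128270266-128270295, + strand): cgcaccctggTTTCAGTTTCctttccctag
Irgm1 (chr11:48871425-48871454, - strand): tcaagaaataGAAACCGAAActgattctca
Igtp (chr11:58199512-58199541, + strand): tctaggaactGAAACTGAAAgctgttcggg
Gbp7 (chr3:142530273-142530302, + strand): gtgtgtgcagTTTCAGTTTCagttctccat
Ifit1 (chr19:34640794-34640823, + strand): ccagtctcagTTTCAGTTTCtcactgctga
Ifit3 (chr19:34583397-34583426, + strand): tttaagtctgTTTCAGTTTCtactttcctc
Isg15 (chr4:156200871-156200900, - strand): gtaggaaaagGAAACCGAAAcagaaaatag
Rsad2 (chr12:26456553-26456582, - strand): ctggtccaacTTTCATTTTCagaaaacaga

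The last shows the GAS core of Irf1, whose first base lies 90 bases before the start.

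Irf1 (chr11:53769914-53769942, + strand): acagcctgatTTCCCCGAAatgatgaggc

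The ISRE core began 222 bases before the start of Stat2 and 120 before that of Rsad2. Irgm1 held 2 overlapping cores, at 30 and 24 bases before its start, of which the second is in capitals. Where other promoters held several ISRE cores (Ifit1, Ifit3 and Isg15), 1 is shown. In Bst2, Gbp7, Ifitm3, Igtp and Oas1a both cores were found in the window, and in Bst2 and Ifitm3 they overlapped. The RefSeq start of Irgm1 lies inside the span that GENCODE gives the gene. Irf9 and Cmpk2 held neither set of letters. A match of letters in a window is a description and says nothing of whether a factor binds there.

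The libraries held 12051881 to 22156511 counts, so that 3 counts correspond to 0.152 to 0.231 CPM. The LG markers were abundant in every library (60308 to 164831 CPM summed over 8 genes). Markers of the parotid gland, a salivary gland, were also present, at 12027 to 41197 CPM in AL and 54367 to 297065 CPM in CR, and all 6 were higher in CR. Of these, 3 were called (Prb1, Prh1 and Prp2), where 1.98% of all genes were. The number was 1 without AL replicate 2 or 3. It was 6 without CR replicate 4, with the replicate block and in DESeq2 (6.14%, 6.24% and 6.28% of all genes). With robust dispersion only Car6 was called, and with at least 10 counts in every library only Prb1. CR replicate 4 differed from the other CR libraries in both sums, with LG markers at 156860 CPM against 60308 to 92306 CPM and parotid markers at 54367 CPM against 242556 to 297065 CPM. The sums were mostly those of a few genes and single markers differed. Obp1a made up 152782 CPM of the LG sum of CR replicate 4, while Sox10 (26.3 CPM against 68.4 to 88.1 CPM) and Aqp5 (117 CPM against 126 to 190.4 CPM) were lowest in that library among the CR libraries. Of the parotid markers, Bpifa2, Amy1 and Car6 were lowest there, whereas Prb1, Prh1 and Prp2 were lowest in CR replicate 3. In the genes described here another library stood apart. AL replicate 3 had the highest level of 22 of the 32 tested members (68.8%), against 17.5% of all tested genes, and no member had its lowest level there. The summed level of the 40 members was 499 CPM in AL replicate 3, 165 to 212 CPM in the other AL libraries and 223 to 321 CPM in the CR libraries. The same library had the highest Ptprc level and the highest summed macrophage, T cell, dendritic cell, plasma cell and NK cell markers. Summed B cell markers (1.73 to 10.6 CPM in AL, 0.424 to 1.11 CPM in CR) were highest in AL replicate 2. Summed plasmacytoid dendritic cell markers were highest in CR replicate 1 (102 CPM, of which Tcf4 made up 101 CPM). Ptprc, the pan-leukocyte gene encoding CD45, stood at 11.9, 13.8, 39.5 and 10.7 CPM across AL replicates 1 to 4, and 9.27, 5.39, 5.08 and 4.22 CPM across CR replicates 1 to 4. The 11 macrophage markers summed to 281 CPM in AL replicate 3, 107 to 153 CPM in the other AL libraries and 65.5 to 117 CPM in CR, and none of them was at 0 in every library. The 7 T cell markers in the table summed to 14.3 CPM in AL replicate 3 and to 1.39 to 5.28 CPM in the 7 others. The part of leukocyte content in the values below was not tested, and in whole glands fewer cells of a type cannot be told apart from less RNA per cell.

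**Figure D1:**
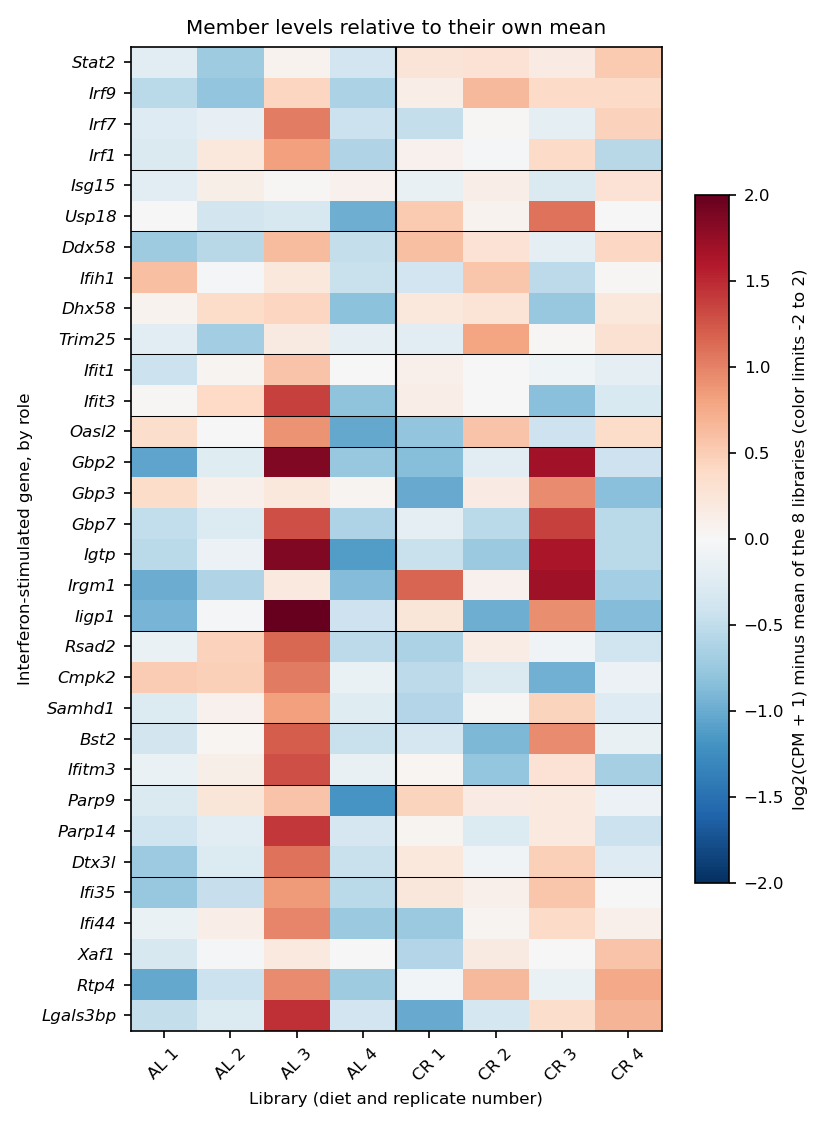
Level of the 32 tested interferon-stimulated genes in each library, as log2(CPM + 1) minus the gene's mean over the 8 libraries, with genes ordered by role and horizontal lines between roles. AL replicate 3 is the column with the most high values (median deviation 0.88), and CR replicate 3 is high mainly in the GTPase block.

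The comparison of the diets asked whether CR altered the level of these genes. None of the 32 tested members differed between CR and AL by the quasi-likelihood test of edgeR after Benjamini-Hochberg adjustment (adjusted p below 0.05 and a fold change of at least 1.5), where 1.98% of all tested genes did. The smallest adjusted p was 0.134. At an unadjusted p below 0.05, 4 members were higher in CR (Stat2, Irf9, Usp18 and Irgm1; background 8.62% of all genes) and 1 was lower (Cmpk2; background 8.1%). Of all 32, 13 had a log2 fold change above 0 and 19 below 0, against 48.9% below 0 among all genes. Their median was -0.15, with quartiles of -0.23 and 0.30, beside a median of 0.01 and quartiles of -0.30 and 0.30 for all genes. Stat2 was the only member whose 4 CR libraries all lay on one side of the 4 AL libraries, which 9.79% of all genes did. The parotid score (the mean log2 level of its 6 markers) was 4.63 to 8.61 in AL and 10.6 to 14.0 in CR. It did not overlap between the diets, so a fit with it cannot tell diet and parotid content apart. With that score in the model, the log2 fold change went from 0.65 to 0.62 for Stat2 and from 0.74 to 0.34 for Irf9. It went from 1.69 to 0.11 for Usp18 and from 1.75 to 1.56 for Irgm1. The standard errors of these 4 members went from 0.21 to 0.45, from 0.28 to 0.59, from 0.69 to 1.72 and from 0.61 to 1.47. None of the 4 was at an unadjusted p below 0.05 in that fit, where Cmpk2, Ifih1 and Ifit3 were, all with lower levels in CR.

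The balance of directions rested on AL replicate 3. This was the highest AL library for 28 of the 32 tested members, and for 30.7% of all tested genes. An upward shift on leaving it out was therefore largely built in. Without AL replicate 3, all 32 log2 fold changes moved upward, and 13 members that had been lower in CR became higher. Only 6 remained below 0 (Ifih1, Ifit3, Gbp3, Rsad2, Cmpk2 and Ifitm3), where 48.7% of all genes were below 0 in that fit, and the median of the members was 0.42 beside 0.01 for all genes. At an unadjusted p below 0.05, 9 members were then higher in CR (Stat2, Irf9, Usp18, Ddx58, Trim25, Irgm1, Dtx3l, Ifi35 and Rtp4; background 7.97%) and Cmpk2 was lower. Irf9 passed the adjusted threshold without this library (log2 fold change 1.13, edgeR adjusted p = 0.0346, range over all alternatives 0.0346 to 0.885), where 0.756% of all genes were called. It also passed in voom with sample weights (log2 fold change 1.01, limma adjusted p = 0.0390), where 3.54% of all genes were called. The median over members also went above 0, to 0.01, without CR replicate 1.

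**Figure D2:**
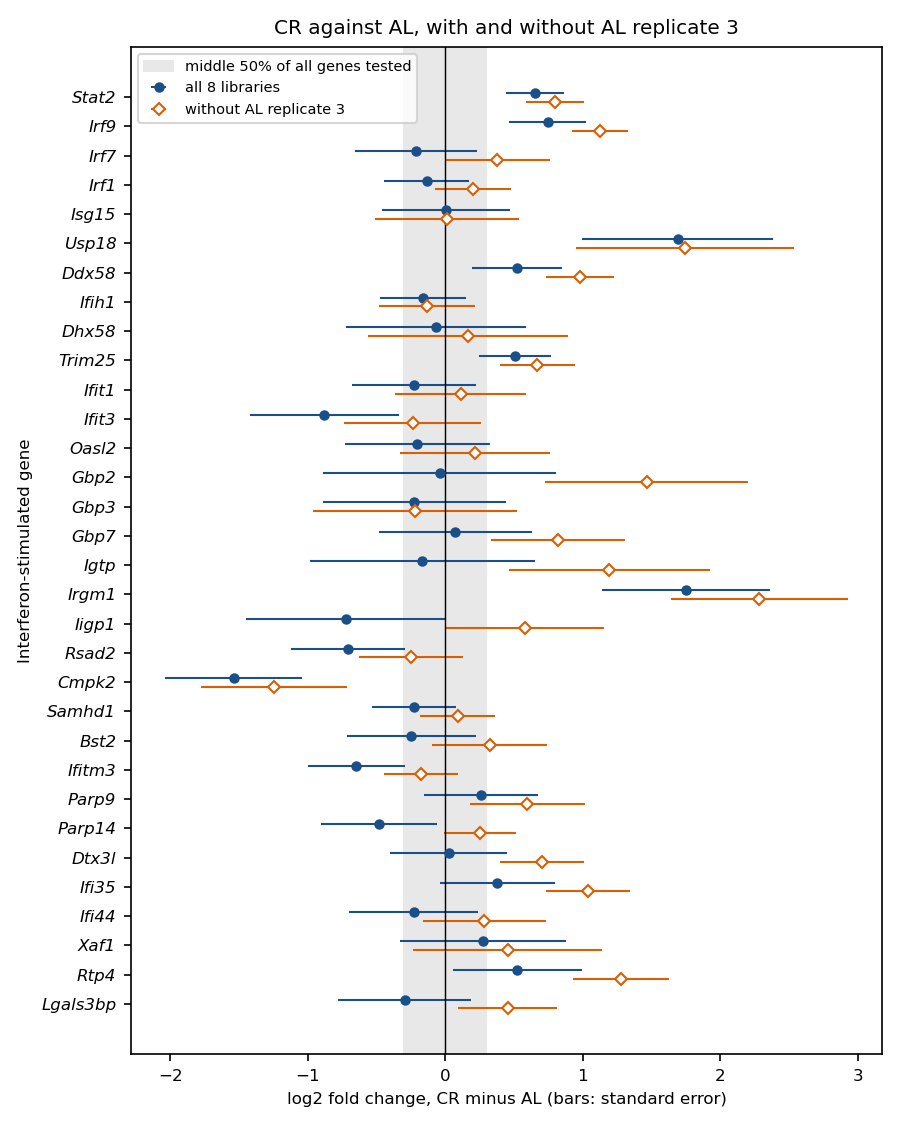
Log2 fold change of each tested member, CR minus AL, with its standard error, from all 8 libraries (filled circles) and without AL replicate 3 (open diamonds), and in gray the middle 50% of all tested genes. Every diamond lies to the right of its circle, and 6 of 32 diamonds lie below 0.

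Stat2 and Irf9, which act in 1 complex, were among the 5 members at an unadjusted p below 0.05, and the other 2 factors, Irf7 and Irf1, were not. Stat2 (chr10:128270559-128292849), the partner of IRF9 and a member with an ISRE core in its promoter, stood at 10.3, 7.12, 12.8 and 9.18 CPM across AL replicates 1 to 4, and 14.8, 15.2, 13.9 and 18 CPM across CR replicates 1 to 4. All CR values exceeded all AL values, with the nearest pair at 12.8 and 13.9 CPM (mean 9.86 ± 2.38 CPM in AL and 15.5 ± 1.78 CPM in CR, SD, n = 4; log2 fold change 0.65 ± 0.21 (SE), edgeR adjusted p = 0.134). The DNA-binding subunit Irf9 (chr14:55603571-55610030) stood at 10.0, 8.22, 20.6 and 9.28 CPM across AL replicates 1 to 4, and 16.5, 24.1, 19.9 and 19.9 CPM across CR replicates 1 to 4. Its AL libraries lay below all CR libraries but for AL replicate 3, which was above 3 of the 4 CR libraries (log2 fold change 0.74 ± 0.28 (SE), edgeR adjusted p = 0.195). Exons of Irf9 overlap those of Rnf31 on the same strand in GENCODE, so reads of both genes may have been mixed or dropped.

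Irf7, which amplifies type I interferon production, ranged from 2.08 to 7.43 CPM in AL and from 1.98 to 4.72 CPM in CR (log2 fold change -0.21, or 0.38 without AL replicate 3). Irf1, which is induced through its GAS by interferon-γ, ranged from 10.6 to 30.0 CPM in AL and from 11.0 to 21.9 CPM in CR (log2 fold change -0.14). Both were highest in AL replicate 3 and their groups overlapped.

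Isg15 encodes a ubiquitin-like protein that is attached to other proteins, and Usp18 encodes the protease that removes it and also blocks the type I receptor. Isg15 was near the limit of these libraries, at 0.771 to 1.23 CPM in AL and 0.681 to 1.5 CPM in CR, with a log2 fold change of 0.01 ± 0.46 (SE). Usp18 (chr6:121245906-121270917) stood at 1.08, 0.613, 0.656 and 0.0507 CPM across AL replicates 1 to 4, and 1.98, 1.18, 3.41 and 1.06 CPM across CR replicates 1 to 4. The lowest value is 1 count, under the 3-count limit of that library, and only AL replicate 1 overlapped the CR range (log2 fold change 1.69 ± 0.69 (SE), edgeR adjusted p = 0.236).

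Among the RNA sensors, Ddx58, which encodes RIG-I, stood at 6.01, 6.81, 16.9 and 7.26 CPM across AL replicates 1 to 4, and 16.6, 13, 9.1 and 14.4 CPM across CR replicates 1 to 4. AL replicate 3 was the highest of the 8 libraries and the other 3 AL libraries lay below every CR library (log2 fold change 0.52 ± 0.33 (SE), edgeR adjusted p = 0.472). Without AL replicate 3 its log2 fold change was 0.98. The ligase gene Trim25, whose product ubiquitinates RIG-I, had a log2 fold change of 0.51, with AL at 8.40 to 16.2 CPM and CR at 12.1 to 25.2 CPM. Ifih1, which encodes the long-RNA sensor MDA5 (-0.16), and Dhx58, which encodes the regulator LGP2 (-0.07), had log2 fold changes smaller than their standard errors. Zbp1, a sensor of Z-form nucleic acid that triggers cell death, was not tested. It had 33 counts in AL replicate 3, 22 in CR replicate 3 and 0 to 10 in the other libraries.

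The IFIT proteins bind viral RNA that lacks host cap methylation. Ifit3 stood at 2.85, 3.99, 8.75 and 1.17 CPM across AL replicates 1 to 4, and 3.11, 2.78, 1.11 and 2.05 CPM across CR replicates 1 to 4. AL replicate 3 was again the highest, and the CR libraries lay within the range of the other AL libraries except CR replicate 3, which was slightly below it (log2 fold change -0.88 ± 0.54 (SE), edgeR adjusted p = 0.459). Its log2 fold change was -0.24 without AL replicate 3. Of the 75-base stretches at its 3′ end, 9.32% also occur in Ifit3b. Ifit1 ranged from 0.771 to 2.55 CPM in AL and 1.11 to 1.56 CPM in CR. The untested Ifit2 had 35 counts in AL replicate 3 and 4 to 12 counts elsewhere.

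The OAS enzymes make 2′-5′ oligoadenylate, which activates RNase L, and the Mx GTPases trap viral nucleocapsids. Oasl2 was the only one of these 7 genes with enough counts to test. It stood at 4.47, 3.31, 7.0 and 1.12 CPM across AL replicates 1 to 4, and 1.49, 5.39, 2.23 and 4.55 CPM across CR replicates 1 to 4, and the groups overlapped over almost their whole range (log2 fold change -0.20 ± 0.53 (SE), edgeR adjusted p = 0.905). Its sign turned positive without AL replicate 3 (0.22) and without CR replicate 1 (0.05). Among the untested genes, Oas2 had 22 counts and Mx1 had 17 counts in AL replicate 3, against 0 to 2 counts in each of the 7 other libraries. Oas3 had 25 counts there and 0 to 14 elsewhere, and Mx2 had 11 counts there and 1 to 9 elsewhere. Oas1a (0 to 10 counts) and Oasl1 (0 to 16 counts) did not have their highest count in AL replicate 3. At its 3′ end, Oas1a shares 56.3% of 75-base stretches with Oas1g, so its counts are uncertain.

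**Figure D3:**
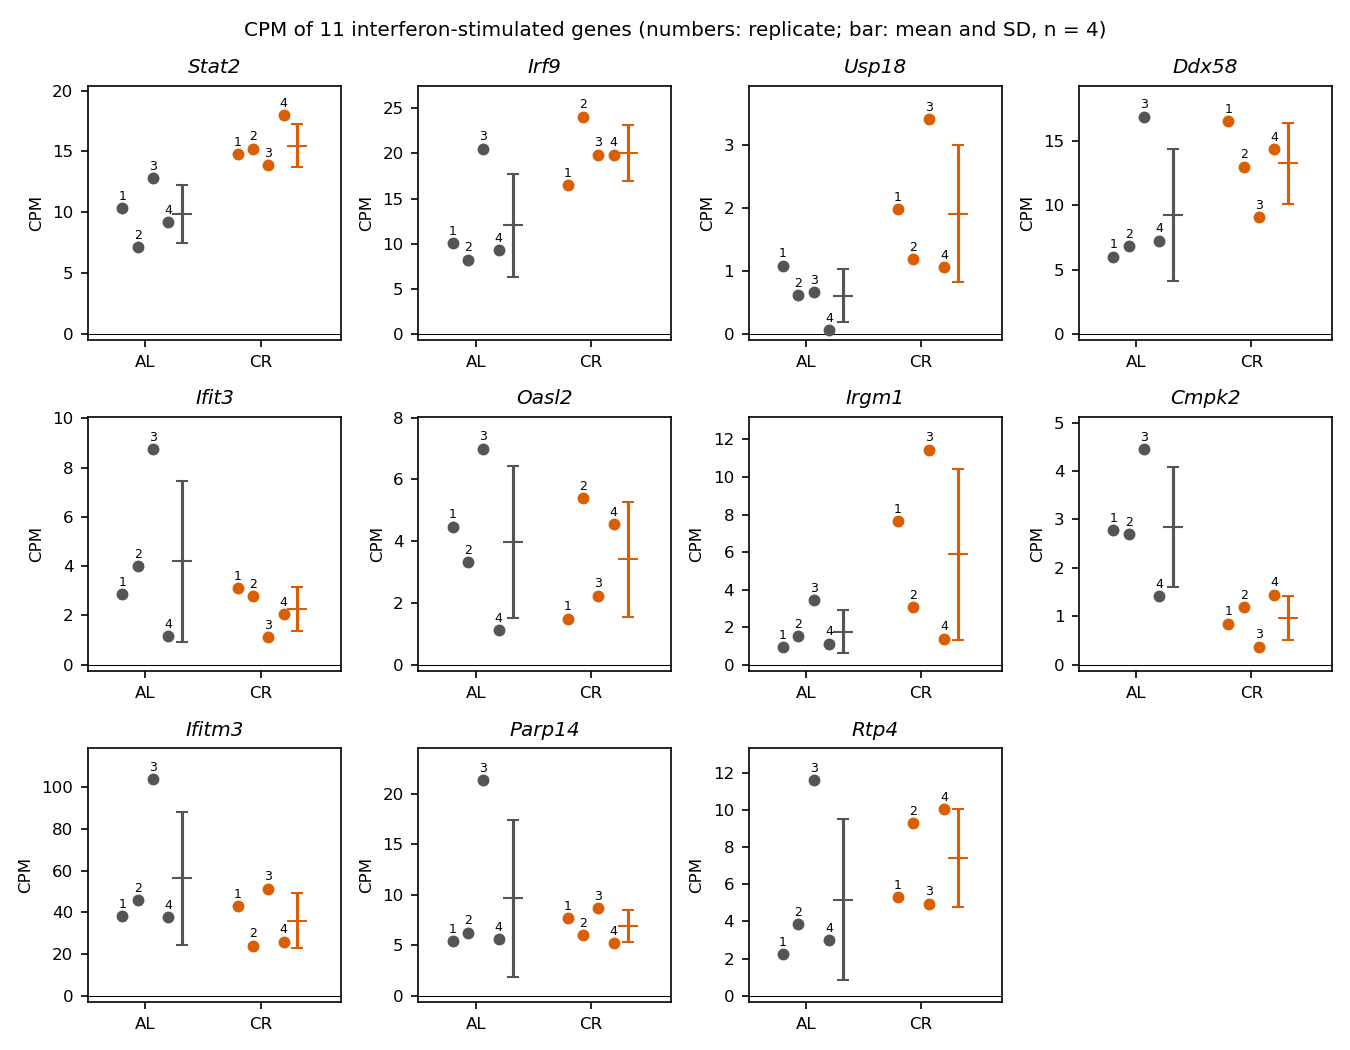
CPM of 11 interferon-stimulated genes in AL and CR libraries, 1 point per library with its replicate number, beside the mean and SD (n = 4), on a linear axis for each gene. AL replicate 3 is the highest AL point in all panels but that of Usp18, and the CR points of Stat2 lie above its AL points.

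The guanylate-binding proteins (GBPs) and immunity-related GTPases (IRGs) coat and disrupt the vacuoles of intracellular pathogens, and most are induced strongly by interferon-γ. Their highest library was AL replicate 3 for 3 of 6 genes and CR replicate 3 for the other 3. Gbp2 stood at 0.925, 2.39, 13.4 and 1.37 CPM across AL replicates 1 to 4, and 1.2, 2.43, 11.8 and 2.0 CPM across CR replicates 1 to 4. Gbp7, from the same cluster on chromosome 3, stood at 5.47, 6.5, 21.1 and 4.92 CPM across AL replicates 1 to 4, and 6.93, 5.27, 22.4 and 5.28 CPM across CR replicates 1 to 4. Igtp, an IRG gene on chromosome 11 with both ISRE and GAS cores in its promoter, stood at 2.0, 3.01, 14.7 and 1.01 CPM across AL replicates 1 to 4, and 2.19, 1.6, 12.6 and 2.0 CPM across CR replicates 1 to 4. In all 3 genes replicate 3 of each diet was several times the other libraries, and the log2 fold changes lay between -0.17 and 0.07. Each value rested on both libraries. Without AL replicate 3 the log2 fold changes were 1.47 for Gbp2, 0.82 for Gbp7 and 1.19 for Igtp, and without CR replicate 3 they were -1.24, -0.70 and -1.41.

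Iigp1 showed the same 2 high libraries, at 20.6 CPM in AL replicate 3 and 9.04 CPM in CR replicate 3, against 1.66 to 5.23 CPM in the 6 others (log2 fold change -0.72 ± 0.73 SE). Its log2 fold change was 0.58 without AL replicate 3 and -1.33 without CR replicate 3. Gbp3 was highest in CR replicate 3 only, at 3.96 CPM, with AL replicate 3 at 1.97 CPM among AL libraries of 1.67 to 2.31 CPM. When each diet's same-numbered libraries were treated as a block, the standard error of the log2 fold change went from 0.85 to 0.28 for Gbp2 and from 0.82 to 0.32 for Igtp. The log2 fold changes in that fit were 0.15 and -0.05. What a shared replicate number marks is not given in the sources used here. Since replicate 3 was the high library of both diets in these genes, a lower standard error follows from the pairing itself. Exons of Igtp overlap Irgm2, and those of Gbp7 an unnamed gene model, on the same strand.

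Irgm1 (chr11:48861968-48871683), a regulatory IRG that keeps the effector GTPases off host membranes, differed in its order of libraries. It stood at 0.925, 1.53, 3.43 and 1.12 CPM across AL replicates 1 to 4, and 7.64, 3.08, 11.5 and 1.39 CPM across CR replicates 1 to 4. CR replicates 1 and 3 lay above all AL libraries, whereas CR replicates 2 and 4 lay within the AL range (mean 1.75 ± 1.15 CPM in AL and 5.89 ± 4.55 CPM in CR, SD, n = 4; log2 fold change 1.75 ± 0.61 (SE), edgeR adjusted p = 0.163). In the edgeR fit of all libraries without a covariate it had the largest fold change of the tested members. Usp18 had a larger log2 fold change with the replicate block (1.82) and in voom (2.02). Whether Irgm1 was called depended on the fit. With the replicate block it passed (log2 fold change 1.53, edgeR adjusted p = 0.0472), as the only member, where 6.24% of all genes were called. It also passed in DESeq2 (log2 fold change 1.75, adjusted p = 0.0438), where 6.28% of all genes were called, and without CR replicate 4 (2.08, edgeR adjusted p = 0.0304), where 6.14% of all genes were called. Over all alternatives its adjusted p ranged from 0.0304 to 0.764 and its log2 fold change from 1.21 to 2.28.

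**Figure D4:**
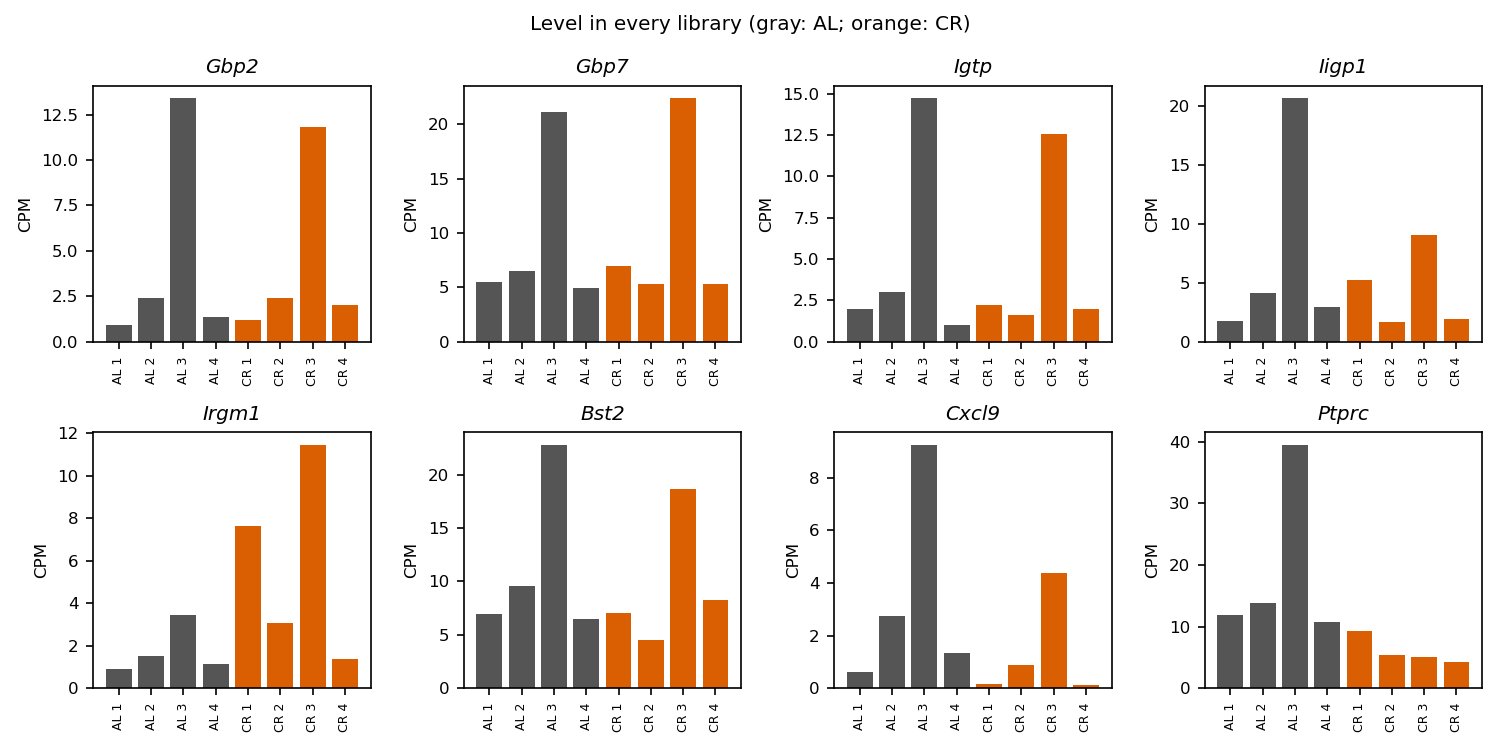
CPM in every library of 5 interferon-inducible GTPase genes, of the restriction factor gene Bst2 and the chemokine gene Cxcl9, and of the leukocyte gene Ptprc, as bars from 0 with AL in gray and CR in orange. Gbp2, Gbp7 and Igtp are high in replicate 3 of both diets, whereas Ptprc is high in AL replicate 3 (39.5 CPM) and not in CR replicate 3 (5.08 CPM).

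The 2 libraries with high GTPase levels differed in their levels of leukocyte, adipose and endothelial markers. Ptprc in CR replicate 3 was within the range of the CR libraries (4.22 to 9.27 CPM), and its summed T cell markers (1.73 CPM) were within the CR range of 1.39 to 2.78 CPM, while its summed macrophage markers (117 CPM) were the highest of the CR libraries and within the AL range. CR replicate 3 had the highest summed adipose markers (55.2 CPM over 5 genes) and endothelium markers (19.4 CPM over 6 genes) of the 8 libraries, where AL replicate 3 had 4.37 and 13.8 CPM. Adipose markers were at 4.37 to 11.0 CPM in AL and 17.5 to 55.2 CPM in CR, without overlap. Of the 3 that were tested, all were higher in CR. Fabp4, a fatty acid carrier gene of adipocytes, was called by edgeR (1.98% of all genes). On leaving out a library, the Fabp4 call was kept only for CR replicates 1 and 4 and for AL replicate 4. No adipose marker was called with the parotid score in the model. Adipoq was also called with the replicate block (6.24%), in DESeq2 (6.28%), without CR replicate 4 (6.14%) and without the filter on low counts. The 4 skeletal muscle markers summed to 0.429 to 9.01 CPM in AL and 1.63 to 49.6 CPM in CR, with CR replicates 2 and 4 highest. No marker of these 3 lists was at 0 in every library, and the part of these tissues in the GTPase levels was not tested. Ifng, the gene of interferon-γ, had 8 counts in AL replicate 3 and 0 in the 7 others, which allows up to 0.152 to 0.231 CPM. The other 20 interferon genes in the table (type I and type III) had 0 counts in all 8 libraries. Of the other interferon-induced genes, Cxcl9, B2m and Tap1 were chosen after their values were seen, for being high in replicate 3 of both diets, and others did not have that order. Cxcl9, an interferon-γ-induced chemokine gene, stood at 0.616, 2.76, 9.26 and 1.32 CPM across AL replicates 1 to 4, and 0.141, 0.888, 4.4 and 0.111 CPM across CR replicates 1 to 4. B2m, the light chain of MHC class I, was at 409 CPM in AL replicate 3 and 414 CPM in CR replicate 3, against 113 to 278 CPM in the others. The peptide transporter gene Tap1 was at 11.7 and 15.7 CPM, against 3.35 to 11.1 CPM. In contrast, the class I heavy chain gene H2-K1 was at 144 CPM in AL replicate 3, below CR replicates 1, 2 and 3 (179, 224 and 231 CPM). Another heavy chain gene, H2-D1, was highest in CR replicate 2 (198 CPM). The chemokine gene Cxcl10 was at 2.04 CPM in AL replicate 3 but 0.186 CPM in CR replicate 3, or 3 counts.

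The nucleotide-metabolism members were all lower in CR by their log2 fold change, none past the adjusted threshold. Cmpk2 (chr12:26469204-26479837), a mitochondrial nucleotide kinase gene, stood at 2.77, 2.7, 4.45 and 1.42 CPM across AL replicates 1 to 4, and 0.849, 1.18, 0.372 and 1.44 CPM across CR replicates 1 to 4. Its AL and CR ranges touched at AL replicate 4 and CR replicate 4, both near 1.4 CPM, and otherwise did not overlap (log2 fold change -1.54 ± 0.50 (SE), edgeR adjusted p = 0.135). DESeq2 called it (log2 fold change -1.55, adjusted p = 0.0419), while over all alternatives the adjusted p ranged from 0.0419 to 0.550. Its log2 fold change was -1.24 without AL replicate 3. Rsad2, its neighbour on chromosome 12, encodes viperin, which makes a chain-terminating nucleotide. Rsad2 ranged from 2.64 to 10.6 CPM in AL and 2.41 to 4.8 CPM in CR (log2 fold change -0.70, or -0.25 without AL replicate 3). Samhd1, which degrades dNTPs, had a log2 fold change of -0.23, which turned to 0.09 without AL replicate 3.

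Ifitm3 and Bst2 restrict viruses at membranes. Ifitm3, which blocks fusion of entering virus, stood at 38.1, 45.8, 104 and 37.8 CPM across AL replicates 1 to 4, and 43, 24, 51.3 and 26 CPM across CR replicates 1 to 4. AL replicate 3 was more than double every other AL library, and CR replicates 2 and 4 were the lowest of the 8 (log2 fold change -0.65 ± 0.35 (SE), edgeR adjusted p = 0.396). Without AL replicate 3 the log2 fold change was -0.18. Bst2, which encodes tetherin and holds budding virions at the cell surface, was at 22.8 CPM in AL replicate 3 and 18.7 CPM in CR replicate 3, against 4.50 to 9.57 CPM in the others, the same 2 high libraries as Gbp2 (log2 fold change -0.25, or 0.32 without AL replicate 3 and -0.79 without CR replicate 3).

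Parp9 and Dtx3l encode a complex that ADP-ribosylates and ubiquitinates, and Parp14 encodes a related ADP-ribosyltransferase that acts in macrophages. Parp14 stood at 5.39, 6.26, 21.4 and 5.63 CPM across AL replicates 1 to 4, and 7.71, 5.98, 8.67 and 5.22 CPM across CR replicates 1 to 4. Apart from AL replicate 3 the 7 libraries lay between 5.22 and 8.67 CPM (log2 fold change -0.48 ± 0.42 (SE), edgeR adjusted p = 0.636), and without it the log2 fold change turned to 0.25. Dtx3l (12.8 CPM in AL replicate 3, 2.93 to 8.05 CPM elsewhere) and Parp9 (7.00 CPM there, 1.37 to 6.30 CPM elsewhere) were also highest in that library. Exons of these 2 genes overlap on opposite strands, and whether counting used strand is not given in the sources used here. Exons of Parp14 overlap an unnamed gene model on the same strand.

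Of the other 5 members, Rtp4, a chaperone gene of membrane receptors that is strongly induced by interferon, stood at 2.23, 3.86, 11.6 and 2.99 CPM across AL replicates 1 to 4, and 5.31, 9.3, 4.95 and 10.1 CPM across CR replicates 1 to 4. The 3 AL libraries other than replicate 3 lay below all 4 CR libraries (log2 fold change 0.53 ± 0.47 (SE), edgeR adjusted p = 0.645), and without replicate 3 the log2 fold change was 1.28. Ifi35 had the same order, with AL replicate 3 at 8.38 CPM, the other AL libraries at 2.08 to 2.76 CPM and CR at 4.22 to 6.63 CPM (log2 fold change 0.38, or 1.04 without AL replicate 3). Lgals3bp, which encodes a secreted galectin-3 ligand, was at 43.4 CPM in AL replicate 3, 10.6 to 12.5 CPM in the other AL libraries and 7.00 to 24.9 CPM in CR. Ifi44 was highest in AL replicate 3 as well (7.14 CPM), and Xaf1, a pro-apoptotic gene, was highest in CR replicate 4 (1.72 CPM). Exons of Rtp4 overlap an unnamed gene model on the same strand.

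The levels of the upstream pathway were then compared from lists of genes that are not members. Of 6 receptor genes, 3 were higher and 3 lower in CR, with none called by edgeR. At an unadjusted p below 0.05, Ifngr1 was lower (background 8.1% of all genes) and Ifnar2 was higher (background 8.62%). Ifngr1 was called with the replicate block (6.24% of all genes called) and in DESeq2 (6.28%). Ifnar2 was called with the block, in voom (3.54%) and without CR replicate 4 (6.14%). Ifngr1, the ligand-binding chain for interferon-γ, stood at 10.4, 10.5, 23.2 and 8.22 CPM across AL replicates 1 to 4, and 5.66, 6.57, 6.93 and 4.94 CPM across CR replicates 1 to 4. Every CR library was below every AL library, where 9.79% of all genes did not overlap in either direction (log2 fold change -1.12 ± 0.31 (SE), edgeR adjusted p = 0.0927). The type I receptor chain Ifnar2 was at 10.7 to 18 CPM in AL and 12.9 to 29.3 CPM in CR (log2 fold change 0.77 ± 0.26 (SE), edgeR adjusted p = 0.152).

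The kinase genes Jak1, Jak2 and Tyk2 had negative log2 fold changes and none was called by edgeR, DESeq2 or voom. Of the 3, only Jak1 was at an unadjusted p below 0.05 in edgeR (background 8.1% of all genes lower). Jak1, the kinase shared by the interferon receptors, was at 134 to 184 CPM in AL and 97.2 to 122 CPM in CR without overlap, as were 9.79% of all genes (log2 fold change -0.46 ± 0.17 (SE), edgeR adjusted p = 0.195). Jak2 (-0.49) and Tyk2 (-0.23) overlapped between the diets.

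In the induction pathway upstream of interferon genes, 13 of 15 were tested, 5 higher and 8 lower, with none called by edgeR. At an unadjusted p below 0.05, 1 was lower, Irf8 (background 8.1% of all genes). Irf8, which encodes a factor of myeloid and B cell development, stood at 11.6, 14.4, 18.3 and 8.47 CPM across AL replicates 1 to 4, and 7.0, 6.1, 5.7 and 9.66 CPM across CR replicates 1 to 4 (log2 fold change -0.89 ± 0.27 (SE), edgeR adjusted p = 0.114). AL replicate 4 lay within the CR range and the other AL libraries lay above it. DESeq2 called Irf8 lower, as did edgeR without CR replicate 4, where 6.28% and 6.14% of all genes were called. Of 7 tested negative regulators, 5 were higher and 2 lower, and 1 was called by edgeR (1.98% of all genes). Ptpn6, which encodes the phosphatase SHP-1 of hematopoietic cells, was called lower and stood at 11.3, 10.9, 16.2 and 10.4 CPM across AL replicates 1 to 4, and 4.32, 5.21, 8.11 and 5.44 CPM across CR replicates 1 to 4 (log2 fold change -1.08 ± 0.25 (SE), edgeR adjusted p = 0.0498). The call held in 9 of 18 alternatives, among them the replicate block and, of the fits that leave out a library, only the fit without CR replicate 4.

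A wider list of 54 further interferon-stimulated genes in the table had 43 tested, of which 18 were higher and 25 lower in CR, with a median of -0.30. By edgeR 1 of the 43 was called (1.98% of all genes). It was Slfn5, a Schlafen-family gene, which was lower in CR and stood at 13.1, 14.8, 21.5 and 14.4 CPM across AL replicates 1 to 4, and 9.27, 6.22, 8.67 and 7.55 CPM across CR replicates 1 to 4 (log2 fold change -1.01 ± 0.22 (SE), edgeR adjusted p = 0.0386), a call that held in 10 of 18 alternatives and, on leaving out a library, only without CR replicate 4. With the replicate block 6 of the 43 were called (6.24% of all genes), lower for Slfn5, Epsti1, Ifi203 and Cxcl9 and higher for Pml and Ifi27l2a. DESeq2 also called 6 (6.28% of all genes), lower for Slfn5, Epsti1, Gbp4, Phf11b and Trim30a and higher for Pml, so that 3 genes were in both sets. Without CR replicate 4 the calls were Slfn5, Pml and Ifi27l2a (6.14% of all genes), and in voom only Slfn5. At an unadjusted p below 0.05, 10 of the 43 were lower and 4 higher in CR, beside 8.1% and 8.62% of all genes. The groups did not overlap in 7 of the 43 (9.79% of all genes), of which 5 were lower and 2 higher in CR. Beside Slfn5, Phf11b (-2.57), Gbp8 (-2.15), Ifi47 (-1.29) and Trim30a (-1.15) had negative log2 fold changes. Eif2ak2, which encodes the RNA-activated kinase PKR (0.74), and Oas1b, of the OAS family (1.07), had positive ones. Of these 6, none passed edgeR's adjusted threshold with all libraries and the filter on low counts, while DESeq2 called Phf11b and Trim30a. Without the filter, edgeR called 3 of the 54 genes, all lower in CR (Phf11b, Slfn5 and Ifi208). In that fit 271 genes were called higher and 165 lower of 16735. AL replicate 3 was the highest library for 22 of the 43, and without it the list had 20 higher and 23 lower and a median of -0.09. On leaving out a library the median ranged from -0.51 (without AL replicate 1) to that value. It was -0.59 with the parotid score in the model and -0.54 without the filter on low counts.

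MHC class I and peptide-loading genes, which interferons also induce, had 15 of 20 tested, 10 higher and 5 lower, with a median of 0.13 and none called by edgeR, DESeq2 or voom. At an unadjusted p below 0.05 in edgeR, H2-K1, H2-D1 and Nlrc5 were higher (background 8.62% of all genes). H2-K1 was called higher with the replicate block and without CR replicate 4 (6.24% and 6.14% of all genes). CR replicate 3 was the highest library for 6 of the 15 and AL replicate 3 for 3. The macrophage markers were lower in CR in 11 of 11 genes (48.9% of all genes), with 7 at an unadjusted p below 0.05 (8.1%). Of them Lyz2 was called (1.98% of all genes). That call held in 11 of 18 alternatives but in only 2 of the 8 that leave out a library (AL replicate 1 or CR replicate 4). C1qc was also called with the block (6.24%) and Adgre1 in DESeq2 (6.28%). With the parotid score in the model, 9 of the 11 were lower and 2 higher. Without AL replicate 3, 10 of the 11 were still lower (48.7% of all genes), none of them called, with a median log2 fold change of -0.55. The median of the interferon-stimulated members in that fit was 0.42, and how the 2 sets relate was not tested. Ptprc had a log2 fold change of -1.66 with all libraries (edgeR adjusted p = 0.0635) and of -1.03 without AL replicate 3. It was called lower with the block (6.24% of all genes), in DESeq2 (6.28%), without the filter on low counts and without AL replicate 4.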

How the data were processed

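RNA from exorbital lacrimal glands of AL and CR mice was sequenced by the authors as 3′ libraries with 75-base single reads, 4 libraries a diet. Reads were trimmed with cutadapt, checked with FastQC, aligned to mm10 with STAR and counted with HTSeq; versions, annotation and strand setting are not given in the sources used here. The deposited table holds raw counts for 24557 rows, of which 5 repeated a symbol and were dropped. The authors also deposited log2 values normalized by DESeq2's relative log expression (RLE), which were recomputed from the counts to within 4.97e-14 and not used further.

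Genes passing edgeR's filterByExpr (11211) were scaled with RLE factors and tested in R 4.3.3 with edgeR 4.0.16 (quasi-likelihood F test, Benjamini-Hochberg adjustment over all tested genes, no covariate). Calls needed an adjusted p below 0.05 and a fold change of 1.5 or more. CPM are counts over the scaled library size, and SE is the absolute log2 fold change over the root of F. The script was tested on simulated counts. Libraries of one diet were taken as separate mice, since the study counts 4 mice a diet in this comparison. The biological coefficient of variation was 34.7%.

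Members and gene lists were chosen with earlier results of these data known, so no list was tested as a whole. Members are named with values in each library if their unadjusted p was below 0.05, if their groups did not overlap, or if they had the largest absolute log2 fold change in a role without such a gene; pathway genes are named if called, or if below 0.05 unadjusted without overlap. Other values shown per library were chosen after they were seen. From the pathway lists, 1 gene is not reported here. The parotid score is the mean log2(CPM + 1) of 6 markers. Replicate numbers are shared by the diets, and what a shared number marks is not given in the sources used here. Deviations from the group means correlated at 0.21, 0.11, 0.30 and 0.54 within the 4 same-numbered pairs. They were therefore treated as pairs in an alternative fit, a choice made from these data, although AL replicate 3 correlated more with CR replicate 1 (0.41). Alternatives tried were scaling by TMM or upper-quartile factors, robust dispersion, no fold-change threshold, no filter, at least 10 counts in every library, the replicate block, the parotid score as a covariate, leaving out the 50 most counted genes, DESeq2 1.42.0, voom with sample weights in limma 3.58.1, and leaving out each library. Promoter stretches are from RefSeq (GRCm38.p6), and positions and exon overlaps from GENCODE on GRCm38.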

Additional observations from a re-analysis of the deposited data

Results flagged for a closer look

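Of 64 groups of 4 libraries (each tested member within each diet), 16 held a library far from the other 3. The rule was Dixon's ratio of the gap to the range at its 95% critical value. Its nominal rate is 5%, but the share flagged over all tested genes is not given here, so 16 of 64 has no measured background. AL replicate 3 was the high library in 12 of the 16. Its levels were 20.6 CPM for Irf9, 7.43 CPM for Irf7, 16.9 CPM for Ddx58, 13.4 CPM for Gbp2, 21.1 CPM for Gbp7, 14.7 CPM for Igtp and 20.6 CPM for Iigp1. They were 104 CPM for Ifitm3, 21.4 CPM for Parp14, 12.8 CPM for Dtx3l, 8.38 CPM for Ifi35 and 43.4 CPM for Lgals3bp.

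CR replicate 3 accounted for the other 4. It was high in Gbp2 (11.8 CPM), Gbp7 (22.4 CPM) and Igtp (12.6 CPM) and low in Dhx58 (0.310 CPM, 5 counts). Genes share libraries, so these groups are not independent of each other.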

How the results depend on the processing

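The filter on low counts left 8 of 40 members untested, and with 4 libraries a diet the biological coefficient of variation was 34.7%. The number of members called, 0 of 32 with all libraries, was 1 with the replicate block (Irgm1, 1.53), 2 in DESeq2 (Cmpk2 and Irgm1), 1 in voom with sample weights (Irf9, 1.01) and 0 to 1 on leaving out a library (Irf9 without AL replicate 3, Irgm1 without CR replicate 4). The block changed no other call of a member, and the cause of these differences was not tested. Over all genes the called number was 222. It was 700 with the block, 704 in DESeq2, 397 in voom and 700 without CR replicate 4. It was 87 without AL replicate 3 and 0 with the parotid covariate. The parotid score did not overlap between the diets, so that last fit cannot tell diet and parotid content apart. At an unadjusted p below 0.05, the 5 members became 3 with at least 10 counts in every library, where 27 members were tested, 3 with the parotid covariate, 8 in voom and 3 to 10 on leaving out a library (3 without AL replicate 2, 10 without AL replicate 3). The count of members lower in CR ranged from 6 to 22 and the median log2 fold change from -0.33 to 0.42 on leaving out a library, with the low count and the high median both without AL replicate 3. Oasl2 ranged from -0.52 to 0.22 and Parp14 from -0.68 to 0.25 in the same way. For single named members, 187 results kept their direction and side of the threshold, 6 passed the threshold only in the alternative and 3 reversed.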
